A study of Mus musculus with 9 samples.

Results

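The DNA replication and S-phase genes described here are 53 genes chosen by name for their known roles in licensing replication origins, copying DNA, making nucleotides, E2F transcription and S-phase checkpoints. All 53 were among the 14108 genes with counts, and all 53 passed the filter on low counts that left 14086 genes to test. They were measured by RNA-seq in GFP+ cells sorted from 9 primary tumours of the models HR1, LM1 and LM9, with 3 tumours a model. HR1 is a non-metastatic mouse mammary cancer cell line from tumours with a mutant *PIK3CA* transgene. LM1 and LM9 are cell lines grown out of lung metastases that HR1 cells formed when they carried a *piggyBac* transposon and a doxycycline-inducible transposase. The transposon is a DNA element that the transposase moves within the genome, where it can switch nearby genes on or off. Those cells were treated with doxycycline in culture to move it. The study set LM1 and LM9, its *Nfib* high-expression models, against HR1 to follow signalling by the transcription factor NFIB in metastatic colonization. For each tumour 250000 cells were injected in Matrigel into the mammary fat pad of a female NOD/SCID mouse aged 4 to 8 weeks, an immunodeficient strain, and tumours were taken before they reached 1500 mm3. Each model is represented by a single cell line, so the effects of the transposon, of passage through a lung metastasis and of the line itself cannot be told apart. No label says that tumours of a model came from separate cultures, so p-values measure the spread between tumours of the same line.

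Cells copy their genome in a fixed sequence. The origin recognition complex, CDC6 and CDT1 load the MCM helicase onto DNA before S phase, MCM10, CDC45 and the GINS complex then turn it into a moving helicase, and the replicative polymerases copy the strands behind it with the PCNA clamp, its RFC loader, RPA and DNA ligase. Transcription of most of these genes is switched on before S phase by E2F factors once cyclin-dependent kinases have inactivated the retinoblastoma protein, and E2F7 and E2F8 switch it off again, while mitosis genes follow later in the cycle under other factors. High levels of these RNAs are a usual mark of dividing cells in tumours.

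Total counts per tumour lay between 32393958 and 46681945. Levels are counts per 1000000 counts of the library (CPM), with library sizes scaled by TMM factors. *Nfib*, which defines the model classes, was at 786, 791 and 579 CPM in LM1 replicates 1 to 3, at 532, 583 and 421 CPM in LM9 and at 1343, 23.9 and 18.3 CPM in HR1. The tumour labelled HR1 replicate 1 therefore went against its label as a low-expression model, and its log2 CPM correlated with the other HR1 tumours over all genes at 0.891 and 0.878, against 0.961 between those 2 and at least 0.986 within LM1 and LM9. Counts over the 53 genes and over each other list are given with and without it, and each member whose call in a comparison of 2 models changed without it is named below. Of 9 epithelial markers looked for, *Krt8*, *Cldn4* and *Cldn7* were not among the listed genes and *Epcam*, *Krt18*, *Krt19* and *Cdh1* were low in every tumour, at 4.49 CPM or less. The basal keratin *Krt14* was at 1.56, 31.4 and 109 CPM in HR1, 175, 152 and 175 CPM in LM1 and 12.2, 15.4 and 14.0 CPM in LM9, and *Krt5* was at 0.0997, 0.63 and 10.7 CPM in HR1 and at most 1.11 CPM in the LM tumours. The 6 listed epithelial markers thus summed to 7.55 to 121 CPM in HR1, 158 to 181 in LM1 and 14.4 to 18.0 in LM9. LM1 and LM9 did not overlap in this sum, nor in the leukocyte, endothelial and erythroid sums given next, but did in the fibroblast sum. The summed level of 10 fibroblast markers was 22655 to 35302 CPM in HR1, 10433 to 13848 in LM1 and 8974 to 10537 in LM9, and that of 8 listed leukocyte markers was 101.7 to 479, 91.8 to 100.9 and 36.2 to 64.1 CPM in these models. The 5 listed endothelial markers summed to 4.50 to 24.7 CPM in HR1, 163 to 226 in LM1 and 252 to 290 in LM9, nearly all of it *Cdh5* and *Kdr* in the LM tumours, where *Pecam1*, *Emcn* and *Cldn5* were at most 1.25 CPM. The 2 listed erythroid markers summed to 19.0 to 166, 13.7 to 44.9 and 4.78 to 11.8 CPM. The part of these markers in the results below was not tested. In these bulk samples a smaller share of cells in S phase and less RNA per cell in S phase cannot be told apart.

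As a group, the replication genes were higher in LM1 than in HR1, and LM9 lay between the other models or at the level of HR1. In LM1, 35 of the 53 genes were higher than in HR1 and none was lower, at an adjusted p under 0.05 by edgeR's quasi-likelihood F-test with Benjamini-Hochberg adjustment over all genes tested, which is the test behind each adjusted p below. Over all genes, 35.5% were called in this comparison and 16.7% were called higher. The median log2 fold change of the 53 genes was 0.92, against −0.04 over all genes. All 3 LM1 tumours lay above all 3 HR1 tumours for 45 of the 53 genes, an order found in 23.9% of all genes.

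LM9 gave another picture. Against HR1, 12 of the 53 genes were higher and 6 were lower in LM9, with a median log2 fold change of 0.13, while 20.4% of all genes were called higher and 21.9% lower. The share of members called in either direction, 34.0%, was below the 42.3% of all genes. In the direct comparison of LM9 with LM1, 29 of the 53 genes were lower in LM9 and none was higher, with a median log2 fold change of −0.71. Here 10.6% of all genes were called lower, and the median over all genes was 0.00. For 42 of the 53 genes all 3 LM9 tumours lay below all 3 LM1 tumours and for none above, orders found in 31.1% and 31.9% of all genes. The count of 29 was the least steady of these: it was 12 without LM9 replicate 1, 14 without LM1 replicate 1, 15 without LM1 replicate 3 and 16 without LM9 replicate 3, while the median stayed between −0.80 and −0.65 whichever tumour was left out. All-gene calls fell in the same fits, from 22.0% to as little as 8.16%.

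**Figure D1:**
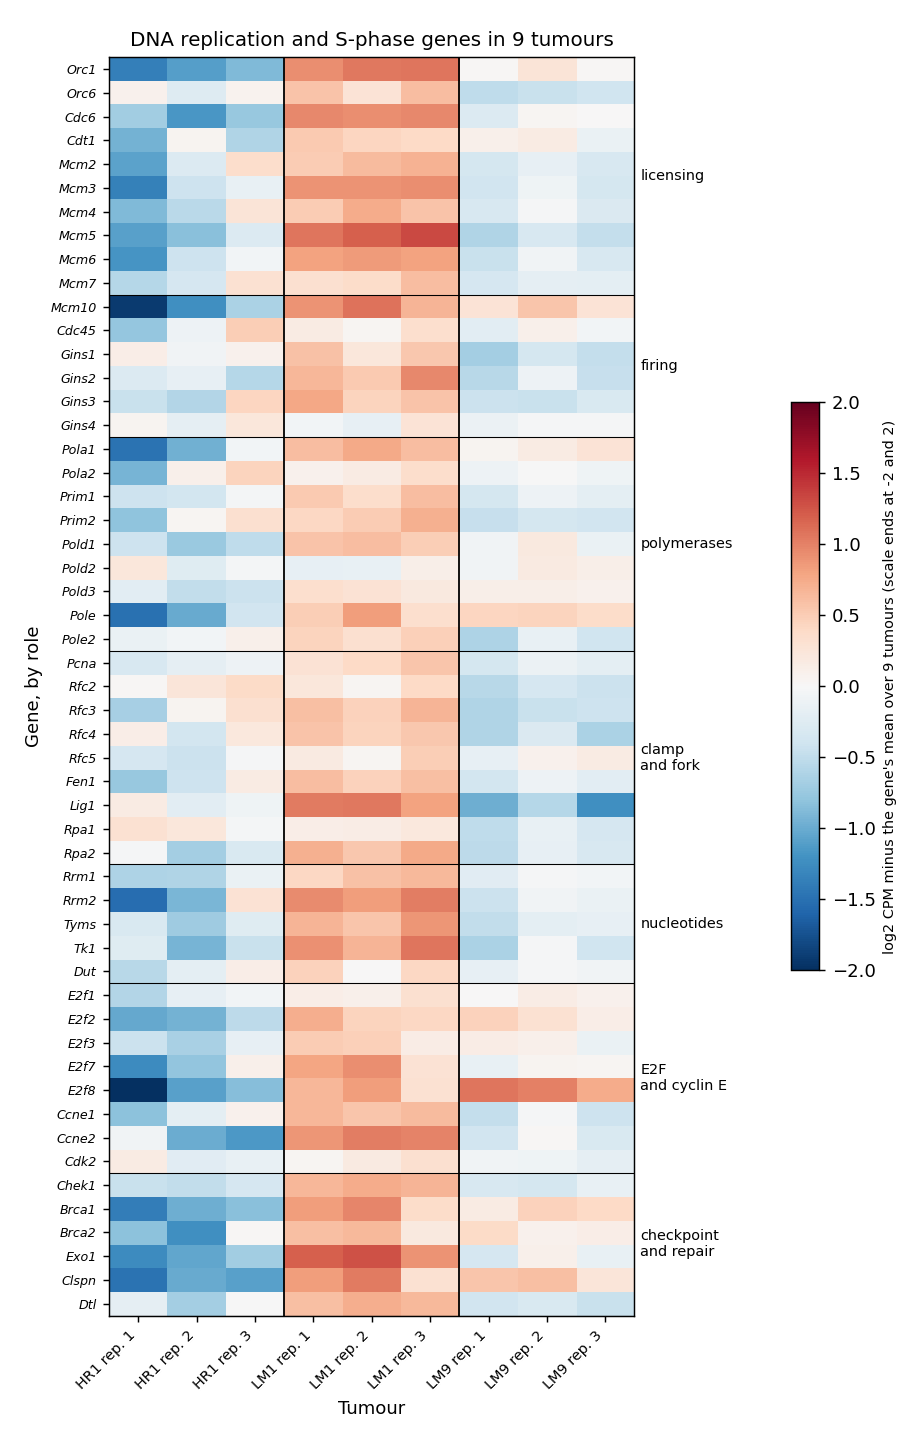
Each row is a gene, grouped by role, and each column a tumour. Colour gives log2 CPM minus the mean of that gene over the 9 tumours, from blue (lower) to red (higher). The 3 LM1 columns are red for most rows, the LM9 columns are pale to blue outside a few rows such as *E2f8*, *Clspn* and *Pole*, and the HR1 columns are mostly blue, with HR1 replicate 3 the palest of the 3.

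Without the tumour labelled HR1 replicate 1, LM1 was higher than HR1 in 40 genes and lower in none, LM9 was higher in 13 and lower in 6, and LM9 was lower than LM1 in 37. The medians of the 53 genes were then 0.78, 0.06 and −0.72. Calls over all genes rose in the same fit, to 52.8%, 55.7% and 45.5% in these comparisons. HR1 replicate 3 had the highest mean level of the group among the HR1 tumours, and without it 19 genes were higher and 3 lower in LM9 than in HR1. The members' median there was 0.34, and 43.5% of all genes were called. With the LM models averaged and compared with HR1, 28 genes were higher and none was lower (26 and 1 without HR1 replicate 1), where 43.6% of all genes were called, 19.9% higher and 23.6% lower. In 15 of the 53 genes, 28.3%, all 6 LM tumours lay above all HR1 tumours, as in 15.6% of all genes.

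Single calls changed as follows. Without HR1 replicate 1, *Mcm2*, *Prim2*, *Rfc3*, *Rfc4* and *Cdk2* were also called higher in LM1 than in HR1. In LM9 versus HR1 the calls of *Orc6* and *Rfc4* were then lost, *Prim2* and *Rfc3* were called lower (−0.58 and −0.67, adjusted p = 0.00503 and 0.002) and *Ccne2* was called higher. *Mcm2*, *Mcm4*, *Mcm7*, *Mcm10*, *Rrm2*, *Dut*, *E2f7* and *Cdk2* were then also called lower in LM9 than in LM1. When each of the 9 tumours was left out in turn, 27 of the 35 genes higher in LM1 than in HR1 kept their call in every fit, and the others were *Orc6*, *Cdt1*, *Mcm4*, *Fen1*, *Rrm2*, *E2f7*, *Ccne1* and *Brca2*. Of the 12 genes higher in LM9 than in HR1, 8 kept it (*Orc1*, *Cdc6*, *Mcm10*, *Pole*, *E2f2*, *E2f8*, *Brca1* and *Clspn*), and of the 6 lower, 2 did (*Rfc2* and *Lig1*). Of the 29 genes lower in LM9 than in LM1, 12 kept it, namely *Orc6*, *Cdc6*, *Mcm5*, *Gins2*, *Rfc4*, *Lig1*, *Rpa2*, *Tyms*, *Tk1*, *Chek1*, *Exo1* and *Dtl*. Counts by role below are those of all 9 tumours unless stated.

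The RefSeq promoter windows of these genes, 250 bases before to 50 after an annotated start on GRCm38.p6, were searched on both strands for the E2F motif in 4 forms, TTTCCCGC, TTTCGCGC, TTTGCCGC and TTTGGCGC. Of the 53 genes 44 had a window, and 21 of these, 47.7%, held at least 1 match, compared with 4.52% of the 11094 tested genes that had a window and 2.6% of all 27025 genes with one. Matches of different forms can overlap on opposite strands, as they did in *Mcm5* and *Mcm6*. The following 30-base stretches show the match in capitals as read on the strand of the gene, for those genes with values in every tumour below that held one.
Orc1, chr4:108579416-108579445, plus strand: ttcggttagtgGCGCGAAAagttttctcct
Cdc6, chr11:98908002-98908031, plus strand: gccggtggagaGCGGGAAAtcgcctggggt
Mcm3, chr1:20820275-20820304, minus strand: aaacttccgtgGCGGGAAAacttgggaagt
Pold1, chr7:44548766-44548795, minus strand: cacggcggcgtatcttgtgGCGGGAAAagc
Lig1, chr7:13278841-13278870, plus strand: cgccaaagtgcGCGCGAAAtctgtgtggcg
E2f2, chr4:136172294-136172323, plus strand: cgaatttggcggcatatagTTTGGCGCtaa
Clspn, chr4:126556990-126557019, plus strand: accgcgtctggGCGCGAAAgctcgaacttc

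The motif in *Orc1* began 27 bases and that in *Cdc6* 138 bases before an annotated transcript start, and those in *Mcm3*, *Pold1*, *Lig1*, *E2f2* and *Clspn* began 19, 39, 26, 39 and 21 bases after it. *Mcm3* held a second match, TTTGGCGC, beginning 38 bases after the start. Matches did not separate the genes by how they differed between LM9 and LM1. They were found in 11 of 23 windowed genes that were lower in LM9 than in LM1 (47.8%) and in 10 of 21 that were not called (47.6%). Of the 12 genes higher in LM9 than in HR1, 10 had a window and 7 of these (70.0%) held a match. The mitosis genes described below had the E2F motif in 1 of 17 windows (5.88%), whereas the CHR motif of late cell cycle genes, TTTGAA or TTTAAA, was in 15 of 17 (88.2%), against 12 of 44 windows of replication genes (27.3%) and 22.8% of windows of tested genes. These are matches of letters and not measured binding.

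Of the 10 genes that license origins, 8 were higher in LM1 than in HR1 and none was lower, and in all 10 the 3 LM1 tumours lay above the 3 HR1 tumours. In all 10, likewise, the LM9 tumours lay below the LM1 tumours, and 6 were called lower (9 without HR1 replicate 1). When LM1 replicate 3, LM9 replicate 1 or LM9 replicate 3 was left out, *Orc1*, *Mcm3* and *Mcm6* lost this call and *Orc6*, *Cdc6* and *Mcm5* kept it. Against HR1, LM9 was higher for *Orc1* and *Cdc6* and lower for *Orc6*.

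*Mcm3* (Entrez 17215, chr1:20802966-20820312), a subunit of the hexameric MCM2 to MCM7 helicase, had the highest level per exon length of these genes over the 9 tumours. It was at 67.9, 131 and 157 CPM in HR1 replicates 1 to 3, 326, 324 and 331 CPM in LM1 and 133, 165 and 137 CPM in LM9. The LM1 tumours were nearly equal and stood far above the rest, and the LM9 and HR1 tumours overlapped. *Mcm3* was 2.75-fold higher (log2 fold change 1.46, standard error 0.27, adjusted p = 0.0041) in LM1 than in HR1. LM9 was 2.26-fold lower (log2 fold change −1.17, standard error 0.27, adjusted p = 0.0172) than LM1, a call lost without LM1 replicate 1 or 3 or LM9 replicate 1 or 3, when the adjusted p lay between 0.0593 and 0.0754. Between LM9 and HR1 no difference was called (log2 fold change 0.29, standard error 0.27, adjusted p = 0.412).

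For the other MCM subunits LM1 was likewise the highest model. *Mcm5* was 3.69-fold higher (log2 fold change 1.89, standard error 0.21, adjusted p = 0.000453) in LM1 than in HR1 and 3.16-fold lower (log2 fold change −1.66, standard error 0.21, adjusted p = 0.00191) in LM9 than in LM1. *Mcm6* was higher and lower by log2 fold changes of 1.30 and −1.09 in these comparisons (adjusted p = 0.00504 and 0.0178). *Mcm4* was called only in LM1 versus HR1 (0.92, adjusted p = 0.0258). *Mcm2* and *Mcm7*, at 0.83 and 0.59, missed the threshold there (adjusted p = 0.0555 and 0.0606), but without HR1 replicate 1 *Mcm2* was called (0.55, adjusted p = 0.0237). In LM9 versus HR1 the 6 subunits lay between −0.09 and 0.29 with none called. These values moved with the HR1 tumours: without HR1 replicate 1 they lay between −0.35 and 0.06 with none called, and without HR1 replicate 3 *Mcm4* and *Mcm5* were called higher (0.50 and 0.49, adjusted p = 0.0401 and 0.0356). Their levels per exon length (RPKM, the CPM per kilobase of exon) ranged in LM1 from 29.4 ± 3.32 for *Mcm7* to 89.6 ± 8.07 for *Mcm5* (± s.d., n = 3), although the subunits form a complex of equal parts. Exon length is the union of exons over all annotated transcripts, so levels per length compared between genes also depend on the annotation.

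*Orc1* (Entrez 18392, chr4:108575705-108616030), the origin recognition subunit whose amount varies through the cycle, was at 3.29, 3.98 and 4.61 CPM in HR1, 16.2, 17.8 and 17.8 in LM1 and 8.65, 10.2 and 8.64 in LM9. The 3 models did not overlap, with LM1 highest and HR1 lowest. It was 4.35-fold higher (log2 fold change 2.12, standard error 0.20, adjusted p = 0.000221) in LM1 than in HR1 and 2.31-fold higher (log2 fold change 1.21, standard error 0.19, adjusted p = 0.00183) in LM9 than in HR1. The difference of LM9 from LM1 (log2 fold change −0.91, standard error 0.19, adjusted p = 0.0124) lost its call without LM1 replicate 3, LM9 replicate 1 or LM9 replicate 3.

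*Cdc6* (Entrez 23834, chr11:98907709-98923942), which recruits the helicase to the origin recognition complex, showed the same steps, with 15.9, 11.5 and 15.2 CPM in HR1, 50.3, 49.1 and 50.2 CPM in LM1 and 21.3, 26.3 and 25.8 CPM in LM9. No tumour of a model overlapped another model. LM1 was 3.51-fold higher (log2 fold change 1.81, standard error 0.17, adjusted p = 0.000212) and LM9 1.72-fold higher (log2 fold change 0.79, standard error 0.16, adjusted p = 0.00569) than HR1, and LM9 was 2.04-fold lower (log2 fold change −1.03, standard error 0.16, adjusted p = 0.00436) than LM1. These calls for *Cdc6* held whichever tumour was left out.

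*Orc6*, another subunit of the recognition complex, went both ways against HR1, being higher in LM1 (log2 fold change 0.52, standard error 0.15, adjusted p = 0.0226) and lower in LM9 (log2 fold change −0.42, standard error 0.15, adjusted p = 0.0463); without HR1 replicate 1 its difference in LM9 was −0.36 (adjusted p = 0.0614), and after adjustment for gene length it was −0.26 (adjusted p = 0.138). *Cdt1*, the loader that acts with CDC6, was higher in LM1 (0.89, adjusted p = 0.0184) and was not called in LM9 versus HR1 or LM1.

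Among the 6 genes for origin firing, 2 were higher in LM1 than in HR1, and 3 were lower in LM9 than in LM1. Of these 3, *Gins1* and *Gins3* lost the call when LM1 replicate 1 or LM9 replicate 1 was left out, and *Gins2* kept it. *Mcm10* (Entrez 70024, chr2:4990724-5012791), which starts DNA unwinding at licensed origins, was at 4.36, 7.05 and 10.6 CPM in HR1, 30.6, 34.9 and 26.4 CPM in LM1 and 19.9, 24.1 and 19.8 CPM in LM9. Every LM tumour was above every HR1 tumour, and the LM9 tumours were below the LM1 tumours. It was 4.17-fold higher (log2 fold change 2.06, standard error 0.30, adjusted p = 0.00138) in LM1 and 2.89-fold higher (log2 fold change 1.53, standard error 0.30, adjusted p = 0.00415) in LM9 than in HR1. The difference of LM9 from LM1 was not called (log2 fold change −0.53, standard error 0.29, adjusted p = 0.216), although without HR1 replicate 1 in the shared fit the adjusted p was 0.0349.

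The GINS complex, which joins CDC45 and MCM in the active helicase, has 4 subunits of uneven RNA level and change. *Gins2* (Entrez 272551, chr8:120581266-120589075) was at 24.9, 26.7 and 20.1 CPM in HR1, 47.4, 42.9 and 58.2 in LM1 and 20.3, 27.9 and 21.7 in LM9. The LM1 tumours stood above all others, which overlapped. *Gins2* was 2.07-fold higher (log2 fold change 1.05, standard error 0.19, adjusted p = 0.00353) in LM1 than in HR1 and 2.12-fold lower (log2 fold change −1.09, standard error 0.19, adjusted p = 0.00605) in LM9 than in LM1, with log2 fold change −0.03, standard error 0.19, adjusted p = 0.897 for LM9 versus HR1.

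*Gins4* (Entrez 109145, chr8:23226610-23237668), with the highest level per length of the firing genes, differed in no comparison. Its values were 40.5, 34.6 and 45.8 CPM in HR1, 37.8, 34.9 and 47.5 in LM1 and 36.0, 38.6 and 38.5 in LM9, with all models overlapping and log2 fold changes of −0.01 and −0.10 against HR1 (adjusted p = 0.968 and 0.65). *Gins1* was lower in LM9 than in LM1 (−0.95, adjusted p = 0.011). Against HR1 it was also called lower in LM9 (−0.55, adjusted p = 0.0458), but not after adjustment for gene length (−0.25, adjusted p = 0.26) nor without 7 of the 9 tumours. *Gins3* was lower in LM9 than in LM1 (−0.99, adjusted p = 0.04). In HR1 the 4 subunits spanned 2.63 ± 1.08 RPKM for *Gins3* to 29.9 ± 4.15 RPKM for *Gins4*. *Cdc45* was not called in any comparison of models, with log2 fold changes from −0.23 to 0.22.

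**Figure D2:**
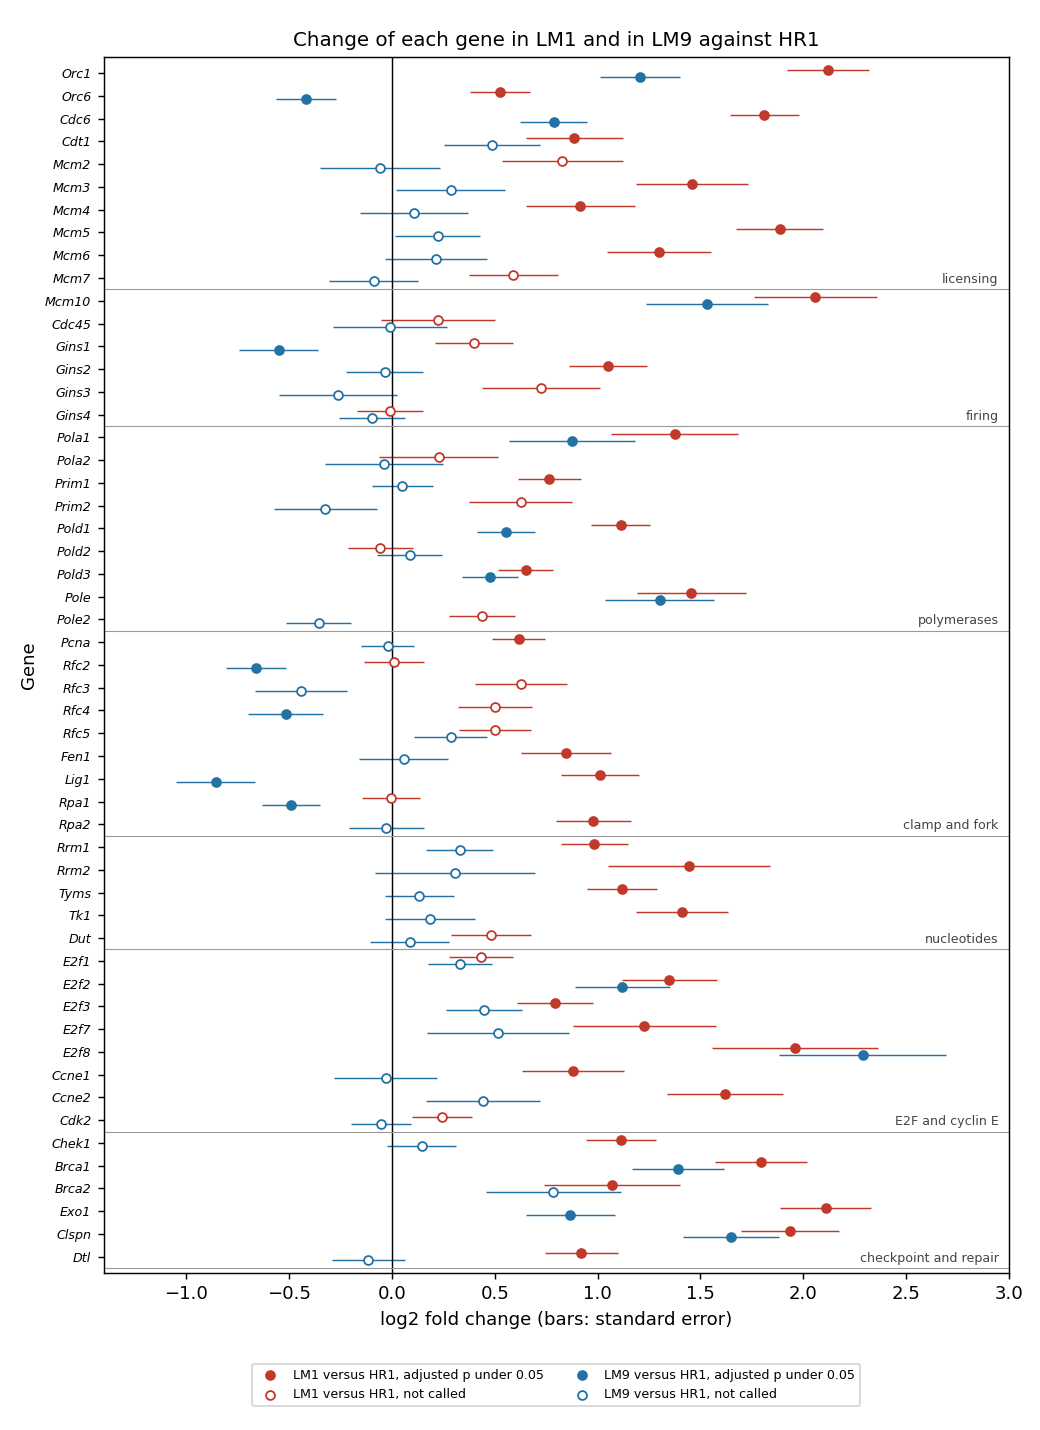
Points give the log2 fold change of each of the 53 genes in LM1 (red) and LM9 (blue) against HR1, bars the standard error, and filled points an adjusted p under 0.05. Red points lie right of blue points in every row except *E2f8* and *Pold2*, and the 6 filled blue points left of 0 are *Orc6*, *Gins1*, *Rfc2*, *Rfc4*, *Lig1* and *Rpa1*.

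Of the 9 polymerase and primase genes, in LM1 5 were higher than in HR1, in LM9 4 were higher than in HR1 and none lower, and 4 were lower in LM9 than in LM1. The calls in LM9 versus LM1 (*Prim1*, *Prim2*, *Pold1* and *Pole2*) were all lost when LM1 replicate 1 or LM9 replicate 1 was left out. In LM9 versus HR1 only the call of *Pole* held without LM9 replicate 2. The catalytic subunits of all 3 replicative polymerases, *Pola1*, *Pold1* and *Pole*, were higher in both LM models than in HR1, and for each of them no LM tumour was as low as any HR1 tumour. For *Pola1* the call in LM9 (0.88, adjusted p = 0.0463) was lost after adjustment for gene length (0.62, adjusted p = 0.102) and without 7 of the 9 tumours. Of the accessory subunits, *Pold3* was also higher in LM1 and in LM9 than in HR1 (0.65 and 0.48, adjusted p = 0.00669 and 0.0208), *Pola2* and *Pold2* were not called in any comparison, and *Pole2* was lower in LM9 than in LM1 (−0.80, adjusted p = 0.0107).

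*Pold1* (Entrez 18971, chr7:44532744-44548815), the catalytic subunit of the lagging-strand polymerase delta, was at 32.5, 25.9 and 30.5 CPM in HR1, 64.5, 66.5 and 61.1 CPM in LM1 and 41.3, 49.4 and 39.7 CPM in LM9. The models formed 3 separate steps. LM1 was 2.16-fold higher (log2 fold change 1.11, standard error 0.14, adjusted p = 0.00078) and LM9 1.47-fold higher (log2 fold change 0.55, standard error 0.14, adjusted p = 0.014) than HR1; the latter call was lost without LM9 replicate 2. The step from LM1 to LM9 (log2 fold change −0.56, standard error 0.14, adjusted p = 0.0238) lost its call without any LM1 tumour and without LM9 replicate 1 or 3, with adjusted p-values up to 0.101.

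*Pole* (Entrez 18973, chr5:110286319-110337468), the catalytic subunit of the leading-strand polymerase epsilon, had 10.2, 14.4 and 22.0 CPM in HR1, 40.4, 51.1 and 36.3 in LM1 and 38.7, 39.3 and 36.9 in LM9. The LM1 and LM9 tumours overlapped and all were above HR1. *Pole* was 2.74-fold higher (log2 fold change 1.46, standard error 0.27, adjusted p = 0.00377) in LM1 and 2.47-fold higher (log2 fold change 1.30, standard error 0.26, adjusted p = 0.00521) in LM9, and LM9 versus LM1 was not called (log2 fold change −0.15, standard error 0.26, adjusted p = 0.702).

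*Pold2* (Entrez 18972, chr11:5872180-5878256), the accessory subunit that joins polymerase delta together, was the most abundant of these genes per length, at 64.5 ± 10.7, 62.1 ± 7.15 and 68.5 ± 6.08 RPKM in HR1, LM1 and LM9 (± s.d., n = 3). Tumour by tumour it was at 144, 104 and 119 CPM in HR1, 109, 111 and 133 CPM in LM1 and 117, 139 and 133 CPM in LM9. All models overlapped. Log2 fold changes were −0.06 in LM1 and 0.09 in LM9 against HR1 (standard error 0.16 for both, adjusted p = 0.807 and 0.685). The primase genes *Prim1* and *Prim2*, which make the RNA primers, were lower in LM9 than in LM1 (−0.71 and −0.95, adjusted p = 0.0128 and 0.0291), and *Prim1* was higher in LM1 than in HR1 (0.77, adjusted p = 0.00536).

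The 9 genes of the clamp, its loader and lagging-strand maturation were in part below HR1 in LM9. Of these, 8 were lower in LM9 than in LM1 (3 without LM9 replicate 1), 4 were lower in LM9 than in HR1 and none was higher in LM9 in either comparison, whereas 4 were higher in LM1 than in HR1. The median log2 fold change of the 9 genes was −0.44 in LM9 versus HR1 (−0.22 after adjustment for gene length) and 0.62 in LM1 versus HR1.

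*Lig1* (Entrez 16881, chr7:13277175-13311426), the ligase that seals Okazaki fragments, differed most between LM9 and LM1 of the 53 genes. It was at 42.2, 32.6 and 35.5 CPM in HR1, 77.7, 78.4 and 66.2 CPM in LM1 and 19.2, 25.5 and 16.2 CPM in LM9. The models did not overlap, with LM9 lowest and HR1 between. LM1 was 2.02-fold higher (log2 fold change 1.01, standard error 0.19, adjusted p = 0.00434) than HR1, LM9 was 1.81-fold lower (log2 fold change −0.86, standard error 0.19, adjusted p = 0.00779) than HR1, and LM9 was 3.65-fold lower (log2 fold change −1.87, standard error 0.19, adjusted p = 0.00084) than LM1. Among the 53 genes *Orc6* alone shared these calls, higher in LM1 and lower in LM9 than in HR1, which 0.213% of all genes had, and its call against HR1 in LM9 was less steady, as given above.

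*Pcna* (Entrez 18538, chr2:132249286-132253180), the sliding clamp, was at 61.3, 67.7 and 71.2 CPM in HR1, 93.8, 100.5 and 113 CPM in LM1 and 60.0, 70.6 and 66.8 CPM in LM9. LM9 and HR1 overlapped below LM1. *Pcna* was 1.53-fold higher (log2 fold change 0.62, standard error 0.13, adjusted p = 0.00698) in LM1 than in HR1 and 1.55-fold lower (log2 fold change −0.64, standard error 0.13, adjusted p = 0.0111) in LM9 than in LM1, the latter call being lost without LM9 replicate 1 (adjusted p = 0.0576). *Pcna* in LM9 was at the level of HR1, with a log2 fold change of −0.02 (adjusted p = 0.916).

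*Rfc4* (Entrez 106344, chr16:23113948-23127730), a subunit of the clamp loader, was at 27.7, 19.6 and 29.1 CPM in HR1, 37.3, 34.2 and 36.6 in LM1 and 16.6, 20.6 and 16.2 in LM9. LM1 was above all other tumours, and LM9 overlapped with HR1 through HR1 replicate 2. It was 2.03-fold lower (log2 fold change −1.02, standard error 0.18, adjusted p = 0.00693) in LM9 than in LM1. Against HR1, LM1 was not called (log2 fold change 0.50, standard error 0.18, adjusted p = 0.0592; 0.0268 without HR1 replicate 1), and the call of LM9 as lower (log2 fold change −0.52, standard error 0.18, adjusted p = 0.0477) was lost without HR1 replicate 1 (adjusted p = 0.0616), without HR1 replicate 3, LM9 replicate 1 or 3 or any LM1 tumour, and after adjustment for gene length (log2 fold change −0.22, adjusted p = 0.363).

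The loader subunit *Rfc2* and the single-strand binding subunit *Rpa1* were close in LM1 and HR1 (0.01 and −0.01, adjusted p = 0.965 and 0.98) and lower in LM9 than in HR1 (−0.66 and −0.49, adjusted p = 0.00766 and 0.0222). *Rpa2*, the partner of *Rpa1*, was instead higher in LM1 than in HR1 (0.98, adjusted p = 0.00417) and not called in LM9 versus HR1 (−0.03). *Fen1*, the nuclease that trims Okazaki fragments, followed *Rpa2* (0.85 and 0.06, adjusted p = 0.0165 and 0.851).

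Of the 5 genes for nucleotide supply 4 were higher in LM1 than in HR1, none was called in LM9 versus HR1, and 3 were lower in LM9 than in LM1 (5 without HR1 replicate 1). For all 5 the LM9 tumours lay below the LM1 tumours. *Tk1* (Entrez 21877, chr11:117815519-117826087), the thymidine kinase of the salvage pathway, was at 53.8, 33.5 and 46.9 CPM in HR1, 121, 102 and 134 CPM in LM1 and 41.3, 63.0 and 48.2 CPM in LM9. LM1 stood apart, and LM9 overlapped with HR1. It was 2.66-fold higher (log2 fold change 1.41, standard error 0.22, adjusted p = 0.00201) in LM1 than in HR1 and 2.34-fold lower (log2 fold change −1.23, standard error 0.22, adjusted p = 0.00717) in LM9 than in LM1.

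*Tyms* (Entrez 22171, chr5:30038546-30073645), thymidylate synthase of the de novo pathway, was at 75.7, 56.9 and 79.0 CPM in HR1, 149, 137 and 173 CPM in LM1 and 66.9, 81.7 and 83.5 CPM in LM9, with LM1 alone standing apart. It was 2.17-fold higher (log2 fold change 1.12, standard error 0.17, adjusted p = 0.00168) in LM1 than in HR1 and 1.98-fold lower (log2 fold change −0.99, standard error 0.17, adjusted p = 0.00586) in LM9 than in LM1. For LM9 versus HR1 the log2 fold changes of *Tk1* and *Tyms* were 0.18 and 0.13 (adjusted p = 0.524 and 0.548).

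*Rrm2* (Entrez 20135, chr12:24708254-24714146), the regulated subunit of ribonucleotide reductase, had the widest spread in HR1 of the 53 genes relative to its mean. It was at 44.3, 67.7 and 156 CPM in HR1, 245, 227 and 259 CPM in LM1 and 94.9, 121 and 116 CPM in LM9. HR1 replicate 3 was above every LM9 tumour, while LM1 was above all others. The rise in LM1 against HR1 was 1.45 (standard error 0.40, adjusted p = 0.0212) and lost its call without HR1 replicate 2 or any LM1 tumour. LM9 versus LM1 was not called (log2 fold change −1.14, standard error 0.39, adjusted p = 0.0675), but was without HR1 replicate 1 or 3 in the shared fit (adjusted p = 0.00706 and 0.00454). Without HR1 replicate 3, LM9 was also higher than HR1, by 0.98 (adjusted p = 0.00744), compared with 0.31 in all tumours (adjusted p = 0.549). *Rrm1*, its larger partner, was higher in LM1 than in HR1 (0.98, adjusted p = 0.00245) and lower in LM9 than in LM1 (−0.65, adjusted p = 0.0228), and *Dut*, which removes dUTP, was not called.

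**Figure D3:**
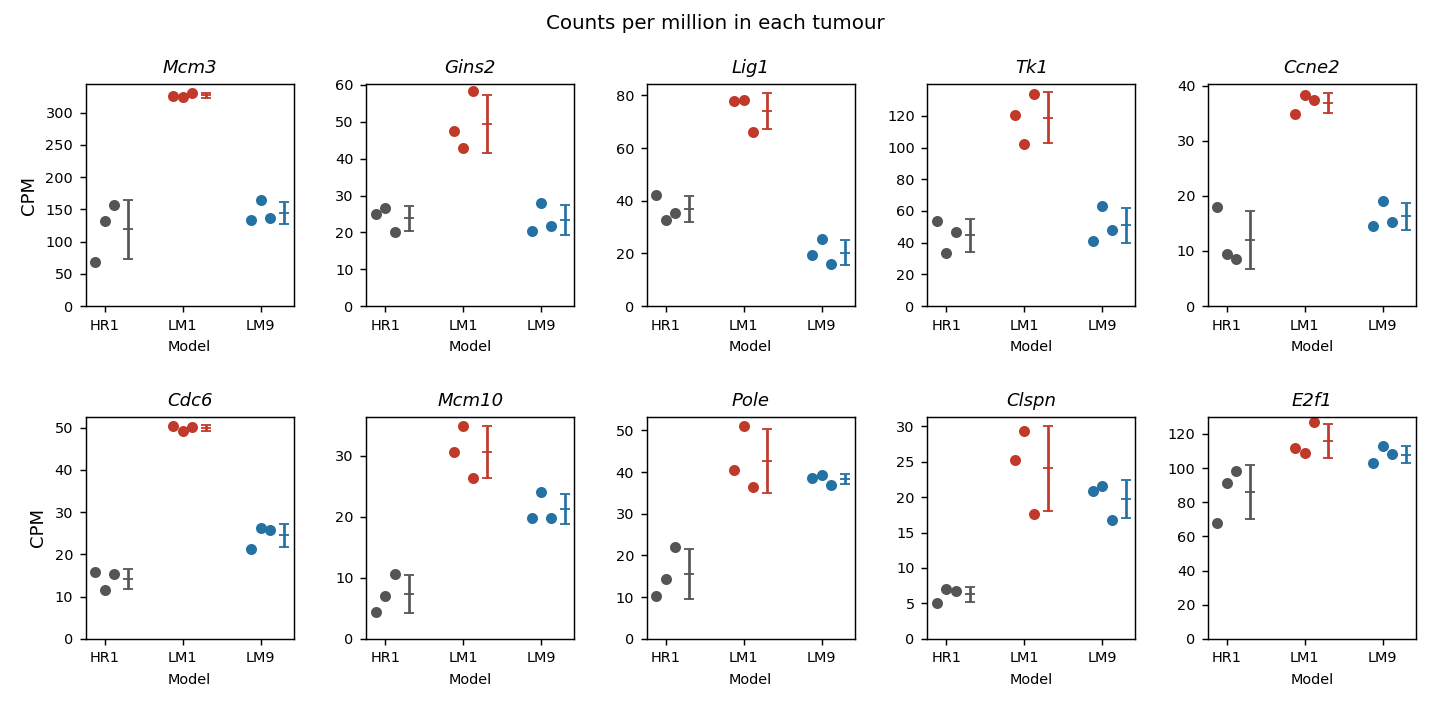
CPM of 10 of the genes in each tumour, with each axis starting at 0; points are tumours, and the bar beside them is the mean ± s.d. (n = 3). In *Mcm3*, *Gins2*, *Lig1*, *Tk1* and *Ccne2* the LM1 tumours stand above both other models; in *Mcm10*, *Pole* and *Clspn* the LM9 tumours are nearer to LM1; *Cdc6* lies between; and in *E2f1* the models differ little.

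Among the 8 E2F, cyclin E and CDK2 genes, 6 were higher in LM1 than in HR1, 2 were higher in LM9 than in HR1, and 2 were lower in LM9 than in LM1 (4 without HR1 replicate 1). These 2, *Ccne1* and *Ccne2*, both lost that call when any 1 LM1 tumour, LM9 replicate 1 or LM9 replicate 3 was left out. *E2f1* (Entrez 13555, chr2:154559400-154569892), an activator of S-phase genes and the most abundant of these per length, was at 68.0, 91.0 and 98.4 CPM in HR1, 112, 109 and 127 CPM in LM1 and 103, 113 and 108 CPM in LM9. Every LM tumour was above every HR1 tumour, by a small margin. Neither LM1 (log2 fold change 0.43, standard error 0.16, adjusted p = 0.0577) nor LM9 (log2 fold change 0.33, standard error 0.16, adjusted p = 0.116) was called against HR1. As a pair they were higher by 0.38 (adjusted p = 0.049), a call that was lost when any 1 of 8 of the 9 tumours was left out.

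*E2f2* (Entrez 242705, chr4:136172274-136196057), another activator, was at 3.19, 3.38 and 4.53 CPM in HR1, 10.7, 8.90 and 8.66 CPM in LM1 and 8.95, 8.03 and 7.16 CPM in LM9. Both LM models were above HR1 and overlapped with each other. It was 2.55-fold higher (log2 fold change 1.35, standard error 0.23, adjusted p = 0.00286) in LM1 and 2.17-fold higher (log2 fold change 1.12, standard error 0.23, adjusted p = 0.00555) in LM9 than in HR1, with log2 fold change −0.23, standard error 0.23, adjusted p = 0.497 between LM9 and LM1. *E2f8*, a repressor of E2F targets, was likewise higher in both (1.96 and 2.29, standard errors 0.40 and 0.41, adjusted p = 0.00646 and 0.00291). It and *Pold2* were the only members with a log2 fold change above 0 in LM9 versus LM1 (0.33 and 0.14, neither called). The related repressor *E2f7* was higher in LM1 than in HR1 (1.23, adjusted p = 0.0243), as was the activator *E2f3* (0.79, adjusted p = 0.0111), and neither was called in the other 2 comparisons of 2 models.

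*Ccne2* (Entrez 12448, chr4:11190433-11204779), a cyclin E that activates CDK2 at the start of S phase, was at 18.0, 9.46 and 8.49 CPM in HR1, 34.8, 38.3 and 37.3 CPM in LM1 and 14.4, 19.1 and 15.3 CPM in LM9. LM1 stood apart, and LM9 overlapped with HR1 through HR1 replicate 1, which was about as high as the LM9 tumours. It was 3.07-fold higher (log2 fold change 1.62, standard error 0.28, adjusted p = 0.00306) in LM1 than in HR1. LM9 was not called against HR1 (log2 fold change 0.44, standard error 0.28, adjusted p = 0.224), but without HR1 replicate 1 it was higher by 0.86 (adjusted p = 0.00153). The difference of LM9 from LM1 (log2 fold change −1.18, standard error 0.28, adjusted p = 0.0193) lost its call without any LM1 tumour and without LM9 replicate 1 or 3. *Ccne1* was also higher in LM1 than in HR1 and lower in LM9 than in LM1 (0.88 and −0.91, adjusted p = 0.0242 and 0.0324), but its log2 fold change in LM9 versus HR1 was −0.03 (adjusted p = 0.931). *Cdk2* was not called.

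All 6 checkpoint and repair genes were higher in LM1 than in HR1, without overlap between the tumours of these models. In LM9 3 of them, *Brca1*, *Exo1* and *Clspn*, were also higher than in HR1, and 3, *Chek1*, *Exo1* and *Dtl*, were lower than in LM1. *Clspn* (Entrez 269582, chr4:126556957-126594533), the adaptor through which ATR activates CHK1 at stalled forks, was at 5.12, 7.05 and 6.69 CPM in HR1, 25.3, 29.4 and 17.6 CPM in LM1 and 20.9, 21.6 and 16.7 CPM in LM9. LM1 and LM9 overlapped, both above HR1. It was 3.83-fold higher (log2 fold change 1.94, standard error 0.24, adjusted p = 0.000621) in LM1 and 3.14-fold higher (log2 fold change 1.65, standard error 0.23, adjusted p = 0.00104) in LM9 than in HR1.

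*Exo1* (Entrez 26909, chr1:175880768-175911396), an exonuclease of mismatch repair and end resection, was at 4.29, 5.02 and 6.36 CPM in HR1, 23.5, 25.0 and 19.2 CPM in LM1 and 8.18, 11.1 and 9.34 CPM in LM9. Its models formed 3 separate steps. LM1 was 4.31-fold higher (log2 fold change 2.11, standard error 0.22, adjusted p = 0.000349) than HR1, LM9 was 1.83-fold higher (log2 fold change 0.87, standard error 0.22, adjusted p = 0.0127) than HR1 (adjusted p = 0.0601 without LM9 replicate 2), and LM9 was 2.36-fold lower (log2 fold change −1.24, standard error 0.22, adjusted p = 0.00608) than LM1. The checkpoint kinase gene *Chek1* was higher in LM1 than in HR1 and lower in LM9 than in LM1 (1.12 and −0.97, adjusted p = 0.00165 and 0.00605), and so was *Dtl*, which directs destruction of CDT1 in S phase (0.92 and −1.04, adjusted p = 0.00494 and 0.00586). For both, LM9 was not called against HR1 (0.15 and −0.12, adjusted p = 0.508 and 0.626), although after adjustment for gene length *Dtl* was called lower in LM9 (−0.56, adjusted p = 0.0412). *Brca1*, of homologous recombination repair, was higher in both LM models (1.79 and 1.39, adjusted p = 0.000709 and 0.00177), and *Brca2* was called in LM1 but not in LM9 (1.07, adjusted p = 0.0334).

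Across the roles the 53 genes fell into a few patterns of calls. The most frequent, higher in LM1 than in HR1 and lower in LM9 than in LM1, was held by 21 genes, and by 3.82% of all genes. The 12 genes higher in both LM models than in HR1, a pattern of 10.9% of all genes, were *Orc1*, *Cdc6*, *Mcm10*, *Pola1*, *Pold1*, *Pold3*, *Pole*, *E2f2*, *E2f8*, *Brca1*, *Exo1* and *Clspn*, and 4 of these (*Orc1*, *Cdc6*, *Pold1* and *Exo1*) were also lower in LM9 than in LM1. The 10 genes called in no comparison of 2 models were *Mcm2*, *Mcm7*, *Cdc45*, *Gins4*, *Pola2*, *Pold2*, *Rfc5*, *Dut*, *E2f1* and *Cdk2*, and 4 of these (*Mcm2*, *Mcm7*, *Dut* and *Cdk2*) were called in at least 1 comparison without HR1 replicate 1. Of the 10, *E2f1* was called higher with the LM models averaged against HR1 (0.38, adjusted p = 0.049). The comparisons with HR1 share the same HR1 tumours, so they are not independent of each other.

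Other genes of the cell cycle were set beside these from lists of textbook roles. Of 45 other replication and S-phase genes, 25 were higher and 1 was lower in LM1 than in HR1, 17 were higher and 1 was lower in LM9 than in HR1, and 1 was higher and 13 were lower in LM9 than in LM1, with medians of 0.79, 0.33 and −0.42. Without HR1 replicate 1 these counts were 28 and 2, 19 and 4, and 5 and 23. *Skp2*, which marks CDK inhibitors for destruction, was at 13.7, 12.5 and 16.8 CPM in HR1, 49.8, 55.1 and 58.9 CPM in LM1 and 28.4, 31.4 and 31.2 CPM in LM9, in 3 separate steps. The licensing inhibitor *Gmnn* was lower in LM9 than in LM1 (log2 fold change −0.84, standard error 0.14, adjusted p = 0.00469). *Rrm2b*, the reductase subunit used outside S phase, was higher in LM9 than in LM1 (log2 fold change 0.88, standard error 0.16, adjusted p = 0.00737).

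Mitosis genes were higher in both LM models than in HR1. Of 21 such genes, 20 were higher in LM1 than in HR1 and 20 were higher in LM9 than in HR1, with medians of 1.45 in both, while 2 were higher and 1 was lower in LM9 than in LM1, with a median of 0.00. Without HR1 replicate 1, 21 and 20 were higher than in HR1 in LM1 and LM9, and 2 were higher and 5 were lower in LM9 than in LM1. After adjustment for gene length the median for LM9 versus LM1 was −0.15, against −0.72 for the 53 replication genes. *Top2a*, the topoisomerase that untangles chromosomes, was at 86.0, 76.3 and 121 CPM in HR1, 396, 446 and 326 CPM in LM1 and 369, 387 and 419.9 CPM in LM9, and the mitotic kinase gene *Plk1* was at 29.8, 28.6 and 41.6 CPM in HR1, 162, 165 and 191 CPM in LM1 and 129, 144 and 139 CPM in LM9. Both were above HR1 in every LM tumour. *Kif20a* and *Cenpe*, for mitotic motor proteins, were higher in LM9 than in LM1 (0.75 and 0.93, adjusted p = 0.0366 and 0.0381), and the cyclin gene *Ccnb1* was lower (−0.55, adjusted p = 0.0462).

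The mean log2 CPM of the 53 replication genes was 4.59 to 5.10 in HR1, 5.80 to 5.83 in LM1 and 5.03 to 5.23 in LM9. For the mitosis genes it was 4.81 to 5.38 in HR1, 6.49 to 6.59 in LM1 and 6.50 to 6.58 in LM9. LM9 thus overlapped with LM1 for mitosis genes, and with HR1 for replication genes only through HR1 replicate 3, at 5.10. HR1 replicates 1 and 2, at 4.59 and 4.74, lay below every LM9 tumour. For the 45 other replication and S-phase genes LM9, at 4.66 to 4.75, lay above HR1 (4.15 to 4.47) and below LM1 (5.02 to 5.05). The replication mean minus the mitosis mean was −0.28 to −0.07 in HR1, −0.79 to −0.66 in LM1 and −1.49 to −1.34 in LM9, without overlap between the models. The tumour labelled HR1 replicate 1 lay between the other HR1 tumours, at −0.22.

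**Figure D4:**
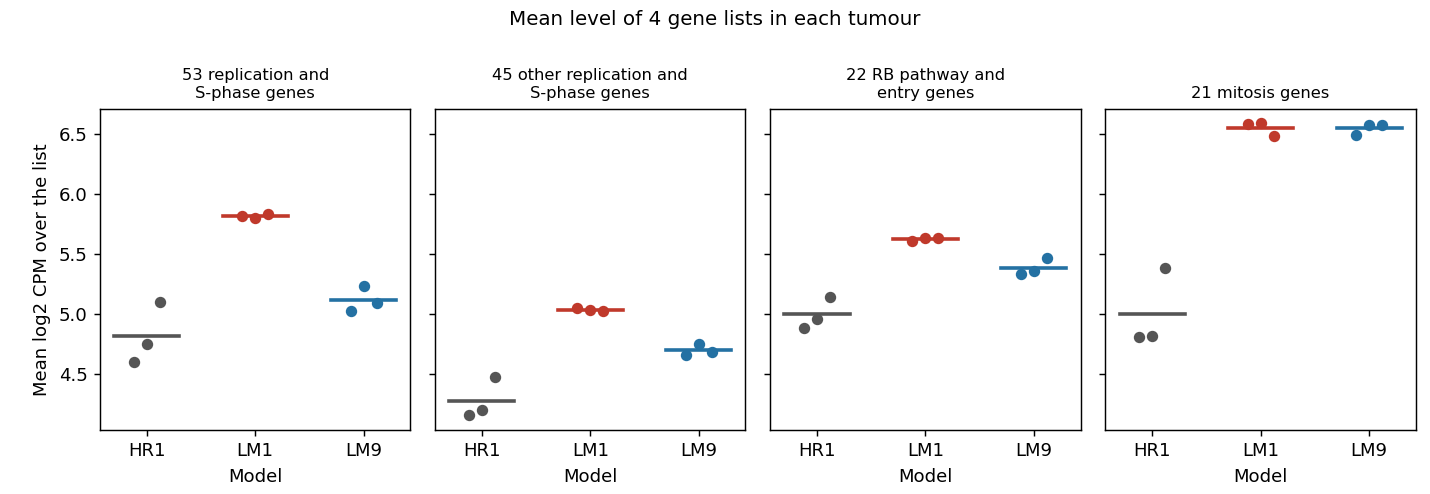
Mean log2 CPM over each of 4 gene lists, with a point for each tumour and a line for the mean of the 3 tumours of a model. For the 53 replication genes the LM9 points (5.03 to 5.23) lie far below LM1 (5.80 to 5.83), whereas for the 21 mitosis genes LM1 and LM9 share a range and both lie above HR1.

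In the 22 genes of the retinoblastoma pathway and cell cycle entry, activators and inhibitors together, calls went both ways in each comparison of 2 models. Their mean log2 CPM was 4.88 to 5.14 in HR1, 5.61 to 5.63 in LM1 and 5.33 to 5.47 in LM9, without overlap. Median log2 fold changes were 0.41 in LM1 and 0.18 in LM9 against HR1, with 15 of the 22 above 0 in each, and −0.08 in LM9 versus LM1. Here 5 were higher and 1 was lower in LM1 than in HR1, 5 were higher and 2 were lower in LM9 than in HR1, and 2 were higher and 1 was lower in LM9 than in LM1. Without HR1 replicate 1 the counts were 10 and 4, 10 and 2, and 4 and 5. The cyclin D gene *Ccnd1*, which starts the inactivation of the retinoblastoma protein, was at 356, 329 and 418 CPM in HR1, 989.6, 1059.9 and 931 CPM in LM1 and 944, 1013 and 984 CPM in LM9, with both LM models above HR1 and overlapping each other. *Mycn*, a MYC family activator of growth, was at 8.65, 10.2 and 9.32 CPM in LM1 and under 0.25 CPM in every other tumour. *Myc* was higher in LM1 and in LM9 than in HR1 (1.28 and 1.71, adjusted p = 0.00339 and 0.000837). *Rbl2* and *Cdkn1b*, for inhibitors of cell cycle entry, were higher in LM9 than in LM1 (1.03 and 0.92, adjusted p = 0.0174 and 0.0313). *Cdk4*, whose kinase works with cyclin D, was lower in LM9 than in HR1 (−0.83, adjusted p = 0.00383).

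Over all genes, fold changes between models moved with gene length, so the members were set against genes of similar length. Of the 9336 genes with a known exon length and a mean log2 CPM over 3, cut by length into 5 classes of equal number, the shortest class had a median log2 fold change of −0.25 in LM9 versus LM1 and the longest class 0.28. The 50 members in this set had medians of −0.79, −0.86, −0.97, −0.60 and −0.58 from the shortest to the longest class, each below the median of all genes in that class, though with 8 to 13 members in each. In LM9 versus HR1 the members' medians from the shortest to the longest class were −0.03, 0.20, 0.22, −0.06 and 0.69, and those of all genes were −0.39, −0.15, 0.01, 0.13 and 0.31. The members lay above all genes in 4 classes and below them in the fourth. After a curve of log2 CPM on exon length was taken out of each tumour, 38 members were higher in LM1 than in HR1, 11 were higher and 4 were lower in LM9 than in HR1, and 29 were lower in LM9 than in LM1. In LM9 versus HR1 the calls of *Orc6*, *Gins1*, *Pola1* and *Rfc4* were lost by this step and *Dtl* was called lower, in LM1 versus HR1 *Pole2*, *Rfc4* and *E2f1* were also called higher, and in LM9 versus LM1 *Gins3* and *Fen1* lost their call and *Mcm2* and *Mcm7* gained one.

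**Figure D5:**
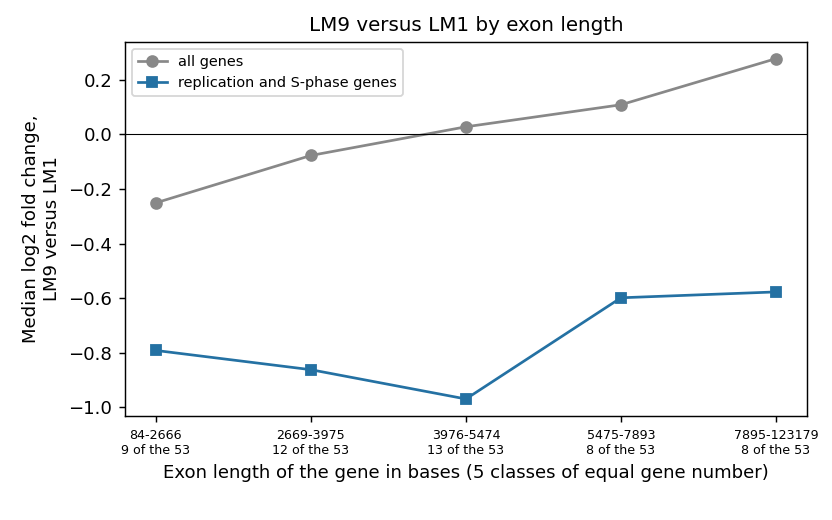
The vertical axis gives the median log2 fold change of LM9 versus LM1 in 5 classes of exon length (horizontal, bases, with the number of the 53 genes in each), for all genes (grey) and for the replication genes (blue). The grey line goes from −0.25 to 0.28, and the blue line lies below it in each class, between −0.97 and −0.58.

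The exons of 12 members overlap those of another listed gene on the opposite strand, namely *Orc6*, *Mcm7*, *Cdc45*, *Gins2*, *Rfc2*, *Rfc4*, *Rfc5*, *Fen1*, *Lig1*, *Tk1*, *Ccne2* and *Cdk2*. The strand setting of the authors' gene counts is not given in the sources used here, so for these 12 genes reads of the partner gene cannot be told apart. They include 4 of the 6 genes lower in LM9 than in HR1 (*Orc6*, *Rfc2*, *Rfc4* and *Lig1*).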

How the data were processed

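Per the labels, 9 stranded mRNA libraries were made from sorted GFP+ tumour cells; reads were single-end of 50 nt. The authors aligned them to mm10 with STAR and deposited whole-number counts per gene, taken with qCount of QuasR over the union of exons; versions and the strand setting are not given in the sources used here. Symbols and coordinates came from RefSeq GRCm38.p6 by Entrez number (14085 of 14108 genes matched), and exon lengths from GENCODE M21 (13512 genes).

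Counts were scaled by TMM (factors 0.928 to 1.05) and fitted with edgeR 4.0.16 (filterByExpr, robust quasi-likelihood F-test, Benjamini-Hochberg adjustment over 14086 genes, threshold 0.05) in R 4.3.3, in a single model of 3 groups of 3 tumours without covariates. LM1 and LM9 together are the mean of their coefficients. Log2 CPM used a prior count of 2. No pair of tumours differed by as little as sampling noise. Alternatives were edgeR's RLE factors, library size only, 2 other count filters, DESeq2 1.42.0, limma-voom (limma 3.58.1, the authors' test), no robust step, the 6 tumours compared, a replicate block, each tumour left out and, added after seeing the data, length-adjusted offsets. Tables and figures were made in Python 3.11.15 with pandas 2.3.3, numpy 2.4.6 and matplotlib 3.10.9.

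The members and lists were chosen with earlier results of these data known. Values in every tumour are given, in each role group, for the member with the highest mean RPKM and the 2 with the smallest unadjusted p in any comparison of 2 models; for each comparison described, up to 4 genes of each other list are named, out of the 4 with the smallest unadjusted p in it.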

Additional observations from a re-analysis of the deposited data

Results flagged for a closer look

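For 29 of the 53 genes the change of LM9 against HR1 differed from that of LM1 against HR1 by edgeR's test of LM9 versus LM1 (adjusted p under 0.05), and for each of them LM9 was lower. Over all genes 10.6% were called lower in this comparison. Of the 29 calls, 12 held whichever tumour was left out, for the genes named above. The log2 differences among licensing genes were −0.91 for *Orc1*, −0.94 for *Orc6*, −1.03 for *Cdc6*, −1.17 for *Mcm3*, −1.66 for *Mcm5* and −1.09 for *Mcm6*. GINS genes differed by −0.95 (*Gins1*), −1.09 (*Gins2*) and −0.99 (*Gins3*), and polymerase and primase genes by −0.71 (*Prim1*), −0.95 (*Prim2*), −0.56 (*Pold1*) and −0.80 (*Pole2*). At the clamp and fork they were −0.64 for *Pcna*, −0.67 for *Rfc2*, −1.07 for *Rfc3*, −1.02 for *Rfc4*, −0.79 for *Fen1*, −1.87 for *Lig1*, −0.49 for *Rpa1* and −1.01 for *Rpa2*. The nucleotide genes *Rrm1*, *Tyms* and *Tk1* differed by −0.65, −0.99 and −1.23, the cyclin E genes *Ccne1* and *Ccne2* by −0.91 and −1.18, and the checkpoint and repair genes *Chek1*, *Exo1* and *Dtl* by −0.97, −1.24 and −1.04.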

How the results depend on the processing

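Out of 53 genes, the number called ranged, with each tumour left out in turn, from 20 to 33 for LM1 and LM9 versus HR1, from 27 to 44 for LM1 versus HR1, from 12 to 22 for LM9 versus HR1 and from 12 to 37 for LM9 versus LM1. With only the 6 tumours compared, LM9 versus HR1 gave 11 in place of 18. The other alternatives gave 25 to 31, 27 to 43, 15 to 18 and 26 to 41. The alternatives that kept every tumour of a comparison, the replicate block among them, called 37.2% to 48.7%, 22.0% to 42.2%, 31.2% to 48.1% and 16.3% to 56.3% of all genes. Of 52 called values of the genes described tumour by tumour, 918 of 974 alternatives kept the call, 56 lost it and none turned its direction; of 526 alternatives of values not called, 25 gained a call and 43, all of 0.21 or less in size, changed sign without one.

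Same-numbered tumours of different models did not deviate together (Pearson r −0.12 to 0.16 over 9 pairs, 1 of them above 0.1; 1 of 9 tumours correlated best with its own number in both other models), so the numbers were not taken to pair them. With the replicate number as a block, 25, 38, 15 and 26 genes were called in the 4 comparisons. With 3 tumours a model, of which HR1 replicate 1 went against its label, the spread in HR1 limits all comparisons with it.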
